A study of Mus musculus with 14 samples.

Results

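Cytosolic ribosomal protein genes were followed in mouse liver as 69 of the 22180 genes measured on whole-transcript arrays. The members were the genes with a symbol of the Rpl or Rps series, plus Rplp0, Rplp1, Rplp2 and Rpsa, that had a probe set annotated to that gene alone. Pseudogenes and the ribosomal S6 kinases were left out. This rule goes by name and uses no difference between groups, but the family was chosen with earlier results of these data known. Of the 69 members, 58 belong to the 79 proteins of the cytosolic ribosome as listed here, 23 of the small and 35 of the large subunit. The other 11 are matched by name but are not on that list. They are the paralogs Rpl3l, Rpl7l1, Rpl10l, Rpl22l1, Rpl39l, Rps4l and Rps27l, the like-named genes Rpl6l and Rpl32l, the retroposed Rps23rg1, and Rps19bp1, which encodes a binding partner of Rps19 that is no part of the ribosome. Of the 21 listed ribosome genes that are no member, 12 were named only by probe sets shared with other genes, Fau was tested under a name outside the series, and 8 were not analysed here.

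All mice were male C57Bl/6J on a 60% high-fat diet (HFD), begun at 6 weeks of age and fed for 4 weeks to induce obesity, after which 3 arms ran for another 4 weeks. In the canagliflozin arm (n = 5 arrays) the diet was combined with canagliflozin, a drug that blocks the renal glucose transporter SGLT2, at 30 mg/kg per the sample labels and 25 to 30 mg/kg per the treatment protocol. The caloric restriction arm (n = 5) ate 15 to 30% less, to match the weight of the drug arm, and the HFD control arm (n = 4) stayed on the diet. Hepatic tissue was profiled whole. Hnf4a, a transcription factor that defines hepatocytes, measured 10.40, 10.46 and 10.36 on average in the canagliflozin, caloric restriction and HFD control arms. It belongs to a list of 9 measured hepatocyte markers. Of these, 3 had higher and 6 lower means under canagliflozin than in HFD controls (median log2 difference -0.0255). Between caloric restriction and HFD control 7 were higher and 2 lower (median 0.019). Between canagliflozin and caloric restriction 2 were higher and 7 lower (median -0.048). All values are log2 signals; array medians ran from 4.07 to 4.13 and any pair of arrays correlated at 0.971 to 0.985. The number of arrays limits the precision.

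The cytosolic ribosome joins a small subunit, which decodes the mRNA, to a large subunit, which forms peptide bonds. Ribosomal proteins are made in matched amounts, and their mRNAs carry a 5′ terminal pyrimidine tract, the TOP motif, through which the kinase complex mTORC1 adjusts their translation to nutrients and growth signals. Because that control acts largely on translation, mRNA level and protein output of these genes can part. Liver spends a large share of its resources on protein synthesis, much of it for secreted plasma proteins, and liver ribosome content is known to fall with food deprivation.

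The transcription starts of 6 members that recur in the results below are shown, some with and some without a CTTTC match, since the start is where a TOP motif would lie. Each line gives 25 bases before and 15 bases from a start annotated in RefSeq (GRCm38.p6), 5′ to 3′ on the gene's strand, and capitals mark CTTTC and, on either strand, CCGGAAG, the core site of ETS factors such as GABP. The lines show promoter and first transcribed bases of Rps6 (chr4:86857353-86857392, minus strand), Rpl28 (chr7:4792940-4792979, plus strand), Rps3a1 (chr3:86142654-86142693, minus strand), Rpl35 (chr2:39005117-39005156, minus strand), Rpl38 (chr11:114668555-114668594, plus strand) and Rpl4 (chr9:64173362-64173401, plus strand).
Rps6: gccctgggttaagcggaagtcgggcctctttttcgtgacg
Rpl28: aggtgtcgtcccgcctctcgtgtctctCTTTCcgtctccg
Rps3a1: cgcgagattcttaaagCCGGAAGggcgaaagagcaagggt
Rpl35: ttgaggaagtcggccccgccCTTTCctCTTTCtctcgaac
Rpl38: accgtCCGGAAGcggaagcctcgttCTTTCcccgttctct
Rpl4: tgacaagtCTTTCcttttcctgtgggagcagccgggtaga
The Rps6 line holds no CTTTC, yet its bases from the annotated start open with an unbroken run of pyrimidines. A line without a marked CTTTC is therefore no sign that a TOP motif is absent. The CTTTC of Rpl4 lies before the annotated start. The start shown for Rpl38 is an annotated one that lies inside the gene's full annotated span, which begins further upstream.

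Promoters were found in RefSeq for 54 of the 69 members. For the ribosome genes among them, 45 genes with 52 annotated starts, CTTTC lay on the gene's strand within 15 bases on either side of 11 starts (21.2%), against 4.05% of all 32851 annotated starts. Counted on both strands in the same window, the shares were 23.1% and 7.57%. CCGGAAG lay on either strand of the promoter, from 250 bases before to 50 after the start, at 40.4% of the ribosome gene starts and 8.86% of all starts. TATAAA lay there on either strand at 7.69% and 13.6%, and GCCATCTT, a site of the factor YY1, at 3.85% and 2.75%. CTTTC and CCGGAAG can share no more than an end base. These are matches of letters, and an annotated start can lie some bases off the true one. The share of starts with CTTTC is therefore no count of TOP motifs.

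On the arrays, 51 of the 69 members had a mean log2 value of at least 5, and 29 lay above the 90th percentile of all probe sets on every array. The brightest probe sets were those of Rpl21, Rpl28, Rps6, Rpl29 and Rpl4, with means of 11.94, 11.47, 11.36, 11.35 and 11.14. At the other end, Rpl10l, Rpl32l, Rpl27a, Rps20 and Rplp2 had means of 2.40, 2.88, 3.03, 3.24 and 3.28, and 8 members stayed below the median of every array. Of the 18 members below 5, 13 encode ribosome components, among them Rpl11, Rplp2 and Rps20, whose proteins every ribosome holds. Signal depends on each probe set's sequence, so these values rank probe sets and not transcript amounts, and the dim ones are read below with that limit. Ribosomal protein genes also have many processed copies in the genome, and values of near-identical copies are uncertain here.

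**Figure D1:**
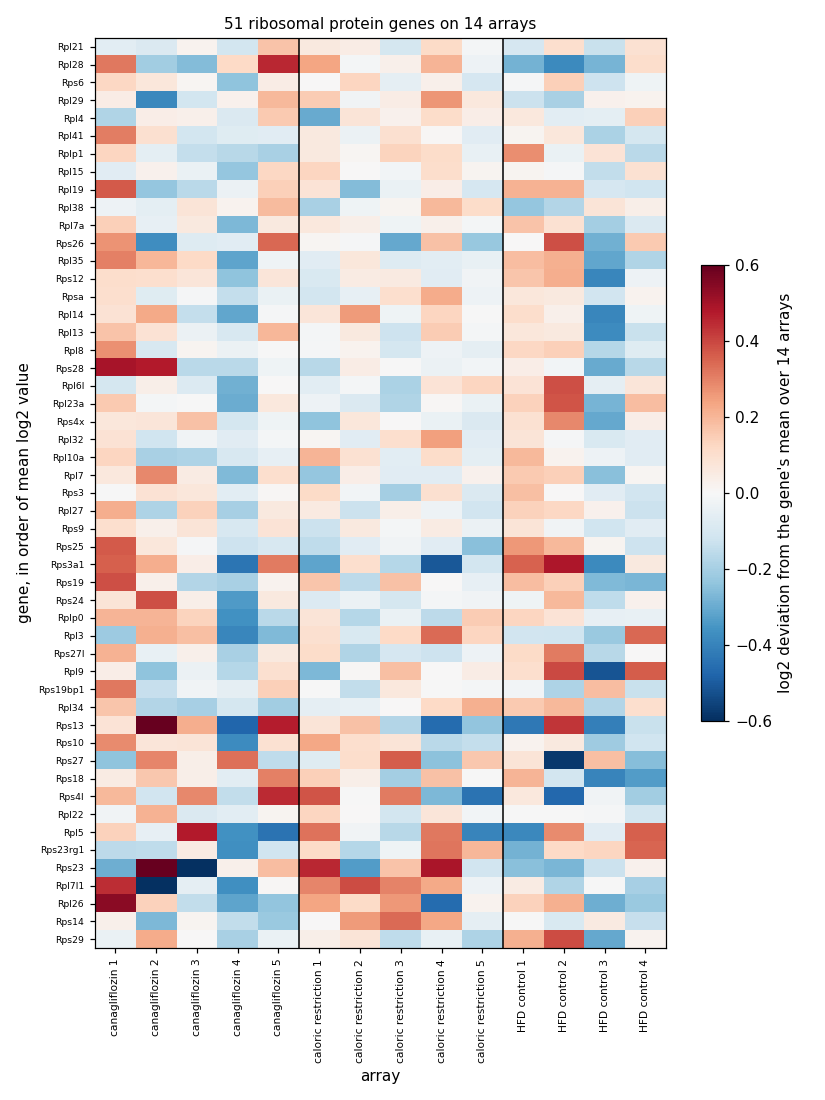
The 51 members with a mean log2 value of at least 5 (rows, brightest at the top) on the 14 arrays (columns), as the log2 deviation from each gene's own mean, with colours ending at 0.6 to either side. Canagliflozin replicate 4 and HFD control replicate 3 are blue through most rows, and no block of colour follows the 3 arms.

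Under canagliflozin, ribosomal protein mRNAs were close to HFD control levels. Of the 69 members 37 had a higher and 32 a lower mean, the median log2 difference was 0.014, and the quartiles were -0.055 and 0.11. Over all 22180 genes 49.7% were higher, with a median of -0.00085. The members were brighter as a set, since 51 of 69 but only 9300 of all genes had a mean of at least 5. At that level 51% of members and 45.7% of all genes were higher, with medians of 0.0047 and -0.014. No member passed an adjusted p of 0.05 in limma, where 0% of all genes did, and the smallest adjusted p of a member was 0.703. An unadjusted p under 0.05 was reached by 1 member upward and 0 downward, against 3.21% and 3.3% of all genes. The arrays of the 2 arms failed to overlap for 0 members in either direction, where 0.987% of all genes were separated upward and 0.965% downward. In whole tissue, fewer cells of a type and less RNA per cell cannot be told apart, and because the deposited values were equalised between arrays, a change shared by all transcripts would not be seen.

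Rps6, the small subunit protein phosphorylated by S6 kinase downstream of mTORC1, showed this directly. Its values were 11.48, 11.43, 11.37, 11.12 and 11.40 in canagliflozin replicates 1 to 5, 11.36, 11.49, 11.31, 11.39 and 11.26 in caloric restriction replicates 1 to 5, and 11.35, 11.50, 11.23 and 11.33 in HFD control replicates 1 to 4. The 3 arms overlapped throughout, and the lowest array was canagliflozin replicate 4. The difference from HFD control was 0.0047 ± 0.094 (SE) under canagliflozin, with a 95% interval from -0.19 to 0.20.

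Proteins of the stalk, the mRNA channel and the 5S particle did not pass the test either, and all 3 stalk genes measured had lower means under canagliflozin than in HFD controls (median -0.13). Rplp0, the base of the stalk that recruits translation factors to the large subunit, measured 7.28, 7.28, 7.21, 6.72 and 6.92 under canagliflozin, 7.16, 6.91, 7.04, 6.92 and 7.23 under caloric restriction, and 7.21, 7.16, 7.03 and 7.04 in HFD controls. Again canagliflozin replicate 4 was the lowest array and the arms overlapped, with a difference of -0.025 ± 0.12 (SE) between canagliflozin and HFD control. A dimmer probe set of Rplp0, with a mean of 5.10, differed by 0.42 in the same comparison (adjusted p = 0.615), and the mean of both differed by 0.20 (adjusted p = 0.772). Rplp1, a further stalk protein, averaged 10.57 ± 0.13 under canagliflozin (SD, n = 5) and 10.70 ± 0.19 in HFD controls (n = 4). Rplp2, its dim partner, averaged 3.18 ± 0.32 and 3.41 ± 0.14, while a brighter probe set naming Rplp2 beside Snora52 differed by 0.165. Rps3, at the mRNA entry of the small subunit, averaged 8.54 ± 0.06 and 8.52 ± 0.13 in the same arms. Rpsa, also known as a laminin receptor, averaged 9.13 ± 0.09 under canagliflozin and 9.17 ± 0.08 in HFD controls. Rpl5, which with Rpl11 carries 5S rRNA and can hold back the p53 ligase Mdm2, averaged 5.30 ± 0.37 and 5.39 ± 0.34, while the dim Rpl11 averaged 3.79 ± 0.31 and 3.61 ± 0.11.

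The member furthest up was Rpl37a, a small zinc-binding protein of the large subunit read by a dim probe set. It measured 4.17, 3.50, 3.91, 3.48 and 3.63 under canagliflozin and 3.60, 3.53, 3.13 and 2.94 in HFD controls. The groups overlapped, and the difference of 0.44 ± 0.17 (SE) had an adjusted p of 0.703. A brighter probe set that names Rpl37a beside Mir682, with a mean of 9.20, differed by 0.054, and one that names Rpl30 beside a pseudogene, with a mean of 9.71, differed by 0.11. Rps13 (0.37 ± 0.22), Rpl30 (0.35 ± 0.19), Rps4l (0.29 ± 0.17), Rpl28 (0.29 ± 0.14) and Rps18 (0.26 ± 0.12) followed, none of which passed. Dimmer probe sets naming Rps13 beside other genes differed by -0.275, 0.197 and 0.0585. Rpl39l (-0.24 ± 0.15), Rps23rg1 (-0.23 ± 0.13), Rplp2 (-0.22 ± 0.18), Rpl17 (-0.22 ± 0.18), Rpl6l (-0.21 ± 0.11) and Rpl37 (-0.18 ± 0.17) were furthest down. Of these 12 members at the ends, 6 had a mean value below 5.

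By subunit, 16 of 23 small subunit genes and 16 of 35 large subunit genes had higher means under canagliflozin than in HFD controls, with medians of 0.034 and -0.0055. The difference between the subunits was not tested. The 95% intervals show what the arrays could resolve. They reached 0.25 to either side for the median member, and for 52 of 69 members they lay wholly inside a log2 difference of 0.5.

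**Figure D2:**
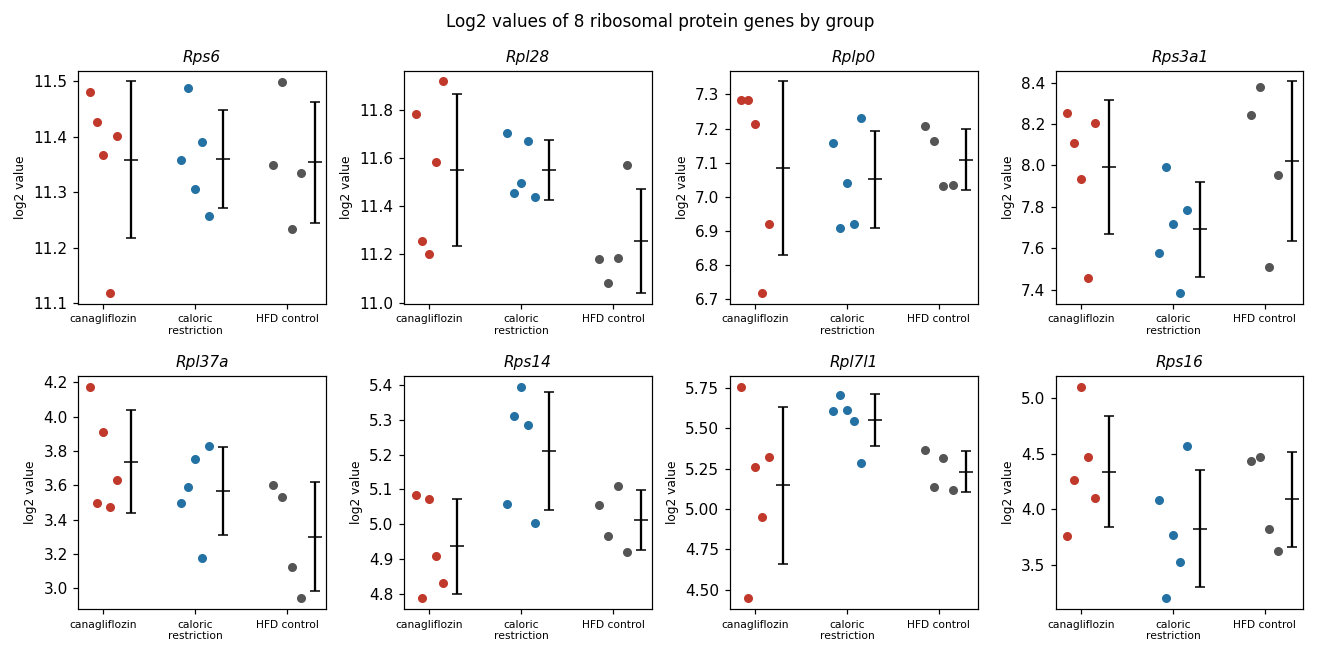
Log2 values of 8 members in canagliflozin (red), caloric restriction (blue) and HFD control (grey) livers, each point an array and each bar the mean ± SD to the right of its points. The arms overlap for all 8 genes, and Rps6 averages 11.36, 11.36 and 11.35.

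Caloric restriction to the weight of the drug arm likewise left the family near HFD control levels. Of the 69 members 42 had a higher and 27 a lower mean, with a median log2 difference of 0.019 and quartiles of -0.062 and 0.12, against 50.5% higher and a median of 0.0016 over all genes. With a mean of at least 5, 58.8% of members and 45.4% of all genes were higher, with medians of 0.017 and -0.013. No member passed the adjusted threshold, nor did any gene (0%), and every member had an adjusted p of 0.999. An unadjusted p under 0.05 was reached by 0 members, against 2.06% of all genes upward and 1.87% downward. The arms were separated for 0 members, against 0.703% upward and 0.694% downward. Both comparisons with HFD control use the same 4 control arrays.

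Rpl28, a large subunit protein with a CTTTC tract at its start, showed the smallest p in this comparison among the members. It measured 11.78, 11.26, 11.20, 11.58 and 11.92 under canagliflozin, 11.70, 11.45, 11.50, 11.67 and 11.44 under caloric restriction, and 11.18, 11.08, 11.19 and 11.57 in HFD controls. HFD control replicate 4 lay among the restricted mice and the other controls lay below them. The difference from HFD control was 0.30 ± 0.14 (SE) under caloric restriction (adjusted p = 0.999) and 0.29 ± 0.14 under canagliflozin (adjusted p = 0.775).

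Rps3a1, a small subunit protein, was furthest down under restriction. It measured 7.58, 7.99, 7.72, 7.38 and 7.78 in restricted mice, against 8.25, 8.38, 7.51 and 7.95 in HFD controls, a difference of -0.33 ± 0.18 (SE). HFD control replicates 3 and 4 lay within the restricted range, and replicates 1 and 2 above it. Its dimmer probe set, with a mean of 3.65, differed by 0.25, in the other direction. The next lower members were Rpl27a (-0.26 ± 0.22), Rps16 (-0.26 ± 0.27), Rps25 (-0.20 ± 0.11), Rpl17 (-0.18 ± 0.18) and Rpl23a (-0.17 ± 0.12). The higher end held Rpl7l1 (0.32 ± 0.18), Rpl28, Rps23 (0.29 ± 0.21), Rpl37a (0.27 ± 0.17), Rpl30 (0.23 ± 0.19) and Rps7 (0.23 ± 0.16). Rpl27a, Rps16, Rpl17, Rpl37a, Rpl30 and Rps7 were dim, with means below 5. Brighter probe sets naming Rpl37a or Rpl30 beside another gene, with means of 9.20 and 9.71, differed by -0.0080 and -0.059. Shared probe sets naming Rpl27a, with means of 10.44 and 7.28, differed by 0.0895 and -0.285. One naming Rps16, with a mean of 9.41, differed by -0.10. In this comparison 14 of 23 small and 20 of 35 large subunit genes were higher, with medians of 0.013 and 0.028, and the intervals of 57 of 69 members lay inside 0.5.

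**Figure D3:**
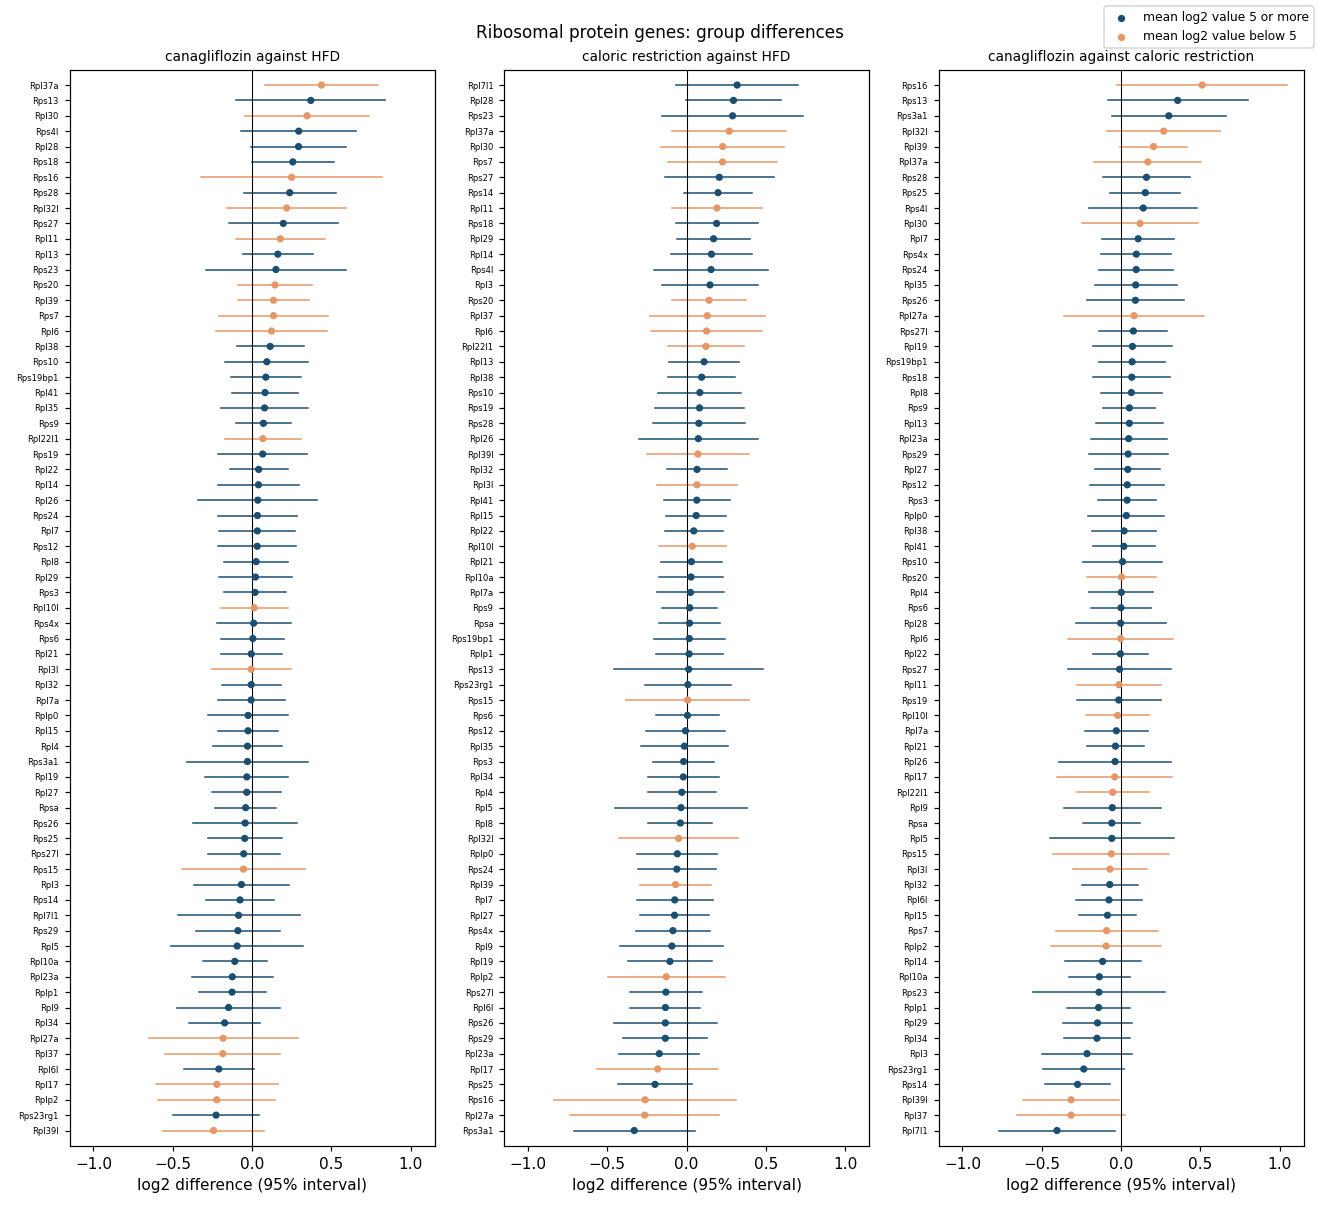
Log2 differences of all 69 members with 95% intervals from limma in the 3 comparisons, sorted within each panel, with dim members (mean below 5) in orange and the others in blue. The interval excludes 0 for 1, 0 and 3 members, and Rps16, a dim member, has the widest.

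Between the drug and the weight-matched arm the family was split evenly. Of the 69 members 34 were higher and 35 lower under canagliflozin than under caloric restriction, with a median of -0.00094 and quartiles of -0.070 and 0.072, against 49% higher and a median of -0.0032 over all genes. With a mean of at least 5, 52.9% of members and 49.3% of all genes were higher, with medians of 0.0094 and -0.0024. No member passed, where 0.00451% of all genes did. That is 1 gene, Rtkn, named after its value was seen, which averaged 4.88 ± 0.10 under canagliflozin and 5.503 ± 0.12 under caloric restriction (SD, n = 5 each). In a fit of only the 2 arms 0 genes passed, and without 1 array the count ran from 0 to 16, the highest without canagliflozin replicate 3. An unadjusted p under 0.05 was reached by 0 members upward and 3 downward, against 3.07% and 2.98% of all genes. The arms were separated for 0 members, against 0.437% of all genes upward and 0.491% downward.

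The 3 members were Rps14, Rpl7l1 and Rpl39l, of which the last is a paralog best known from testis and was dim here. Rps14, a small subunit protein whose loss causes a human anaemia, measured 5.08, 4.79, 5.07, 4.91 and 4.83 under canagliflozin and 5.06, 5.31, 5.40, 5.29 and 5.00 under caloric restriction, with HFD controls at 5.05, 4.97, 5.11 and 4.92. The treated arms overlapped through caloric restriction replicates 1 and 5, and the difference was -0.27 ± 0.10 (SE, adjusted p = 0.74). Rpl7l1, a paralog of Rpl7, measured 5.76, 4.45, 5.26, 4.95 and 5.32 under canagliflozin and 5.61, 5.71, 5.61, 5.54 and 5.28 under caloric restriction. Canagliflozin replicate 1 was the highest and replicate 2 the lowest of these 10 arrays, and the difference was -0.40 ± 0.17 (SE, adjusted p = 0.807).

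Rps16, a small subunit protein with a dim probe set, lay furthest up in this comparison. It measured 3.76, 4.26, 5.10, 4.47 and 4.10 under canagliflozin and 4.08, 3.20, 3.76, 3.52 and 4.57 under caloric restriction, a difference of 0.51 ± 0.26 (SE, adjusted p = 0.828). A brighter probe set that names Rps16 beside 2 other loci, with a mean of 9.41, differed by 0.057. Rps13 (0.36 ± 0.21), Rps3a1 (0.30 ± 0.17), Rpl32l (0.27 ± 0.17), Rpl39 (0.20 ± 0.10) and Rpl37a (0.17 ± 0.16) came next. Dimmer probe sets naming Rps13 beside other genes, with means of 3.49, 3.13 and 4.06, differed by -0.392, 0.405 and 0.188. The brighter one naming Rpl37a beside Mir682 differed by 0.062, and one naming Rpl39 beside other genes by -0.025. Below 0, Rpl37 (-0.32 ± 0.16), Rps23rg1 (-0.24 ± 0.12) and Rpl3 (-0.21 ± 0.13) stood beside the 3 members named above. The values of Rpl3, which lies near the peptidyl transferase centre, depended on the probe set, since the mean of its 3 probe sets differed by 0.021. For 59 of 69 members the interval lay inside 0.5.

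Paralogs are set beside their partners by their differences between arms, since levels of different probe sets are not comparable. Rps27 and Rps27l, the second a p53-responsive paralog, differed by 0.20 ± 0.16 and -0.053 ± 0.11 (SE) between canagliflozin and HFD control, and by 0.21 ± 0.16 and -0.13 ± 0.11 between caloric restriction and HFD control. Rpl22 and Rpl22l1, of which the first is known in mice to repress the second, differed by 0.041 ± 0.087 and 0.069 ± 0.11 under canagliflozin and by 0.045 ± 0.087 and 0.12 ± 0.11 under caloric restriction. Rpl3l, the muscle paralog of Rpl3, stayed dim with a mean of 3.62 and differed by -0.0052 ± 0.12 and 0.065 ± 0.12. The X-linked Rps4x and its paralog Rps4l differed by 0.0098 ± 0.11 and 0.29 ± 0.17 under canagliflozin and by -0.086 ± 0.11 and 0.15 ± 0.17 under caloric restriction. Rps19, mutated in human Diamond-Blackfan anaemia, and its partner gene Rps19bp1 differed by 0.067 ± 0.13 and 0.087 ± 0.11 under canagliflozin and by 0.082 ± 0.13 and 0.017 ± 0.11 under caloric restriction. None of these passed the threshold in limma, and differences within pairs were not tested. Rpl7, the partner of Rpl7l1, differed by 0.11 ± 0.11 between canagliflozin and caloric restriction, and Rpl10l, a testis copy of Rpl10, averaged 2.39 ± 0.15 (SD, n = 5) under canagliflozin.

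The brighter members shifted partly together between arrays of an arm. Each array was summarised by the median deviation of the 51 members with a mean of at least 5 from their own means. It was 0.12, 0.032, 0.010, -0.16 and 0.044 in canagliflozin replicates 1 to 5, 0.052, 0.0030, -0.017, 0.041 and -0.031 in caloric restriction replicates 1 to 5, and 0.078, 0.083, -0.15 and -0.044 in HFD control replicates 1 to 4. The group means were 0.010 ± 0.10 (SD, n = 5), 0.0094 ± 0.036 (n = 5) and -0.0075 ± 0.11 (n = 4). Canagliflozin replicate 4 and HFD control replicate 3 were the lowest arrays of their arms, and 40 of the 51 members were below their own mean on both. Canagliflozin replicate 1 and HFD control replicate 1 were high, with 31 of 51 members above their own mean on both. The restricted mice showed the narrowest spread, and the difference in spread was not tested.

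On canagliflozin replicate 4 and HFD control replicate 3, TOP-class translation factors had medians of -0.14 and -0.082, and mitochondrial ribosomal protein genes -0.089 and -0.040. On both lists other arrays lay below HFD control replicate 3. The TOP-class median was -0.091 on caloric restriction replicate 3. The mitochondrial median was -0.103 on HFD control replicate 4, and -0.054 and -0.058 on caloric restriction replicates 3 and 5. The order in which the arrays were deposited ran alongside the shift. The first 7 arrays in that order, drawn from all 3 arms, had positive member medians, and the 2 lowest arrays were neighbours at positions 9 and 10. What the order reflects is not stated, and its part in the shift was not tested. With position as a covariate the median member differences were 0.00142 for canagliflozin and 0.034 for caloric restriction against HFD control, and -0.011 for canagliflozin against caloric restriction. Without canagliflozin replicate 4 and HFD control replicate 3, a setting chosen after seeing the data, the median differences were 0.017 for canagliflozin and 0.0070 for caloric restriction against HFD control, and 0.037 for canagliflozin against caloric restriction, and 0 members passed in each.

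**Figure D4:**
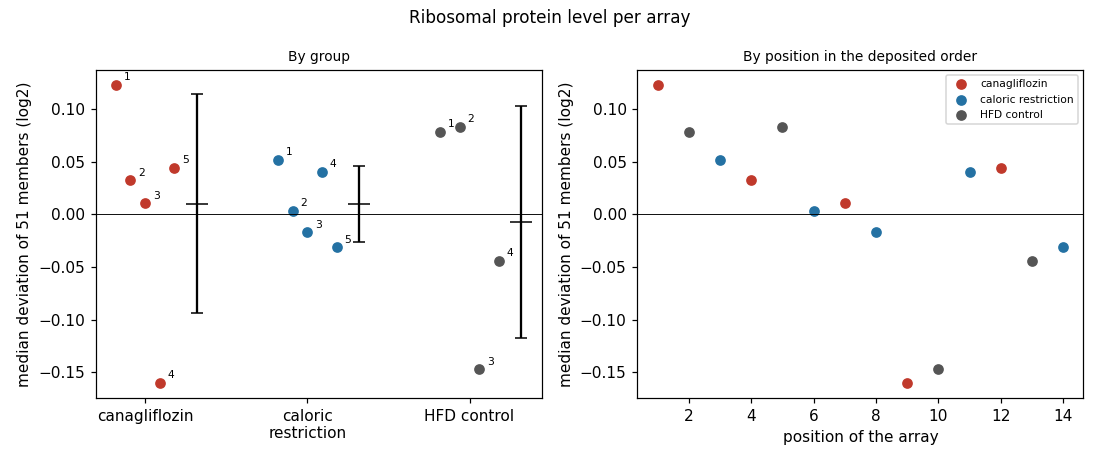
Median log2 deviation of the 51 brighter members on each array, by arm with mean ± SD and replicate numbers (left) and by position in the deposited order (right). The arms overlap, with means of 0.010, 0.0094 and -0.0075, and the lowest 2 arrays, at -0.16 and -0.15, stand at positions 9 and 10.

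After the arm means were removed, the mean correlation between pairs of the 51 members over the 14 arrays was 0.231, against 0.0121 for pairs of all 9300 genes with a mean of at least 5. It was 0.151 for 66 mitochondrial ribosomal protein genes, 0.163 for 20 TOP-class translation factors, 0.0945 for 55 ribosome assembly factors and 0.0251 for the 18 dim members. These values describe the arrays and share their scaling. Rpl7a, Rpl35, Rps6, Rps12 and Rps10 followed the member median most closely, with r of 0.945, 0.876, 0.839, 0.83 and 0.812 over 14 arrays, a median to which they contribute. Rps27 (-0.563), Rpl38 (-0.371), Rpl29 (-0.109) and Rpl4 (-0.0753) ran against it or apart from it. In all, 29 of 51 members had r above 0.5. Rpl35, near one end, and Rpl38, near the other, both carry CTTTC at the start shown above. Members at these ends were named after their values were seen.

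The member median was also set beside the 9249 other genes with a mean of at least 5, which were not matched to the members by signal. Most like it were Nxt1, a cofactor of mRNA export (r = 0.907 over 14 arrays), and Cog3, of the Golgi tethering complex (0.87). The small nucleolar RNA gene Snora30 (0.862), Ccdc124 (0.856) and the spliceosomal gene Cwc15 (0.844) followed. The most opposed were H2-K2 (-0.855), Ubr7 (-0.853), Kifc2 (-0.841), Siae (-0.812) and Rsad2, an interferon-induced gene (-0.808). They are the ends of a long ranking and are given as a description.

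Several members were read by more than 1 probe set, and probe sets with identical values on every array were counted once. For 24 genes with 58 distinct probe sets in all, the signs of every probe set of the gene matched for 7 genes between canagliflozin and HFD control, 10 between caloric restriction and HFD control, and 16 between the 2 treated arms. Rpl41, the shortest ribosomal protein, was picked after its values were seen. Its 5 probe sets showed differences of 0.082, 0.12, 0.18, 0.010 and -0.10 between canagliflozin and HFD control, the last from its dimmest. Of the 8 probe sets of Rps12, 6 held identical values, as did 2 of 3 for Rps19 and both of Rpl23a. Probe sets that name a ribosome gene beside other genes, 57 in all, had median differences of 0.044 (38 higher), 0.00070 (29 higher) and 0.047 (34 higher) in the 3 comparisons, and 0 passed. Fau, which encodes a ubiquitin-like fusion with a small subunit protein, averaged 9.32 ± 0.15, 9.34 ± 0.094 and 9.31 ± 0.12 in canagliflozin, caloric restriction and HFD control livers.

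The machinery that builds and uses ribosomes was compared by lists. Ribosome assembly factors had 36 of 56 genes higher between canagliflozin and HFD control (median 0.040) and 32 of 56 between caloric restriction and HFD control (median 0.022), and 0 passed in limma. Lsg1, a GTPase of late large subunit maturation, averaged 6.54 under canagliflozin and 6.81 in HFD controls, with every drug-treated array below every control (-0.27 ± 0.11, SE, adjusted p = 0.721). Nmd3, the export adaptor that Lsg1 releases, differed by 0.20 ± 0.095. Nop2, an rRNA methyltransferase, averaged 6.96 under canagliflozin and 7.30 under caloric restriction (-0.34 ± 0.10, adjusted p = 0.683), and Nop56, of the box C/D particle, differed by -0.27 ± 0.13 there. Noc4l and Nop2 differed by 0.30 ± 0.095 and 0.28 ± 0.11 between caloric restriction and HFD control (adjusted p = 0.999 for both).

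Of the RNA polymerase I and III genes, 13 of 32 were higher between canagliflozin and HFD control (median -0.017). Polr1d, a subunit common to both enzymes, averaged 6.77 under canagliflozin, 6.52 under caloric restriction and 6.44 in HFD controls. The drug-treated arrays lay above all others of both arms, with differences of 0.33 ± 0.092 from HFD control (adjusted p = 0.559) and 0.25 ± 0.087 from caloric restriction (adjusted p = 0.728). Polr3gl differed by 0.27 ± 0.12 from HFD control under the drug. Polr2l, a subunit common to all 3 nuclear polymerases, differed by -0.48 ± 0.21 under restriction.

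TOP-class translation factors, which share the pyrimidine tract, had 9 of 20 genes higher between canagliflozin and HFD control (median -0.0084) and 6 of 20 between caloric restriction and HFD control (median -0.047). Nap1l1, a histone chaperone of that class, averaged 6.40 under canagliflozin and 6.16 under caloric restriction (0.25 ± 0.10, adjusted p = 0.807). Initiation factors had 14 of 22 genes higher in the first comparison (median 0.012), and Eif2s2, a subunit of eIF2, differed by 0.21 ± 0.12. In the mTORC1 list 13 of 30 genes were higher in each comparison with HFD control (medians -0.021 for both), and 21 of 30 between canagliflozin and caloric restriction (median 0.030), and 0 passed. Ddit4, an inhibitor of mTORC1 that stress and glucocorticoids induce, averaged 7.003 under canagliflozin, 6.92 under caloric restriction and 6.10 in HFD controls, differing by 0.91 ± 0.30 (adjusted p = 0.601) and 0.82 ± 0.30 (adjusted p = 0.999). Mtor differed by -0.21 ± 0.10 under restriction. In the surveillance and import list 7 of 16 genes were higher between canagliflozin and HFD control and 9 of 16 under restriction, where the cell cycle inhibitor Cdkn1a differed by 0.92 ± 0.50. Between canagliflozin and caloric restriction, 28 of 56 assembly, 18 of 32 polymerase, 12 of 20 TOP-class, 13 of 22 initiation and 6 of 16 surveillance genes were higher. Between caloric restriction and HFD control, 19 of 32 polymerase and 10 of 22 initiation genes were higher, and 0 genes of these lists passed in any comparison.

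Mitochondrial ribosomal proteins, the family most like this one, had higher means under the drug in most genes. Of 71 genes 52 were higher between canagliflozin and HFD control (median 0.054), 31 between caloric restriction and HFD control (median -0.020) and 51 between canagliflozin and caloric restriction (median 0.054), and 0 passed. The first value stands beside 37 of 69 and 0.014 for the cytosolic genes, and the difference between the families was not tested. Per array, the median deviation of the 71 mitochondrial genes from their own means averaged 0.023 ± 0.079 under canagliflozin (SD, n = 5). That value averaged -0.018 ± 0.045 under caloric restriction (n = 5) and -0.022 ± 0.067 in HFD controls (n = 4), and the arms overlapped. Mrpl48 averaged 5.00 under canagliflozin and 4.75 in HFD controls, with no overlap (0.24 ± 0.10, adjusted p = 0.731). Mrpl28 averaged 6.33 under canagliflozin and 5.96 under caloric restriction (0.36 ± 0.13, adjusted p = 0.747). Of 64 measured markers in 7 cell type lists, 0 passed in any comparison. The macrophage, stellate cell and neutrophil lists had medians to the same sides as the mitochondrial list. The hepatocyte, endothelial and lymphocyte lists had medians to the opposite sides in every comparison, and the cholangiocyte list was mixed. Of 11 macrophage genes, 10 had higher means in canagliflozin than in HFD control livers (median 0.12). Higher means were found for 2 in caloric restriction than in HFD control livers (median -0.13). For 11 they were higher in canagliflozin than in caloric restriction livers (median 0.20). In the same order the medians were 0.029, -0.033 and 0.11 for stellate cell genes and 0.035, -0.060 and 0.049 for neutrophil genes. They were -0.041, 0.028 and -0.037 for endothelial genes and -0.015, 0.0095 and -0.055 for lymphocyte genes. Cholangiocyte genes had medians of -0.0071, -0.022 and 0.030. The part of these lists in the mitochondrial values was not tested.

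**Figure D5:**
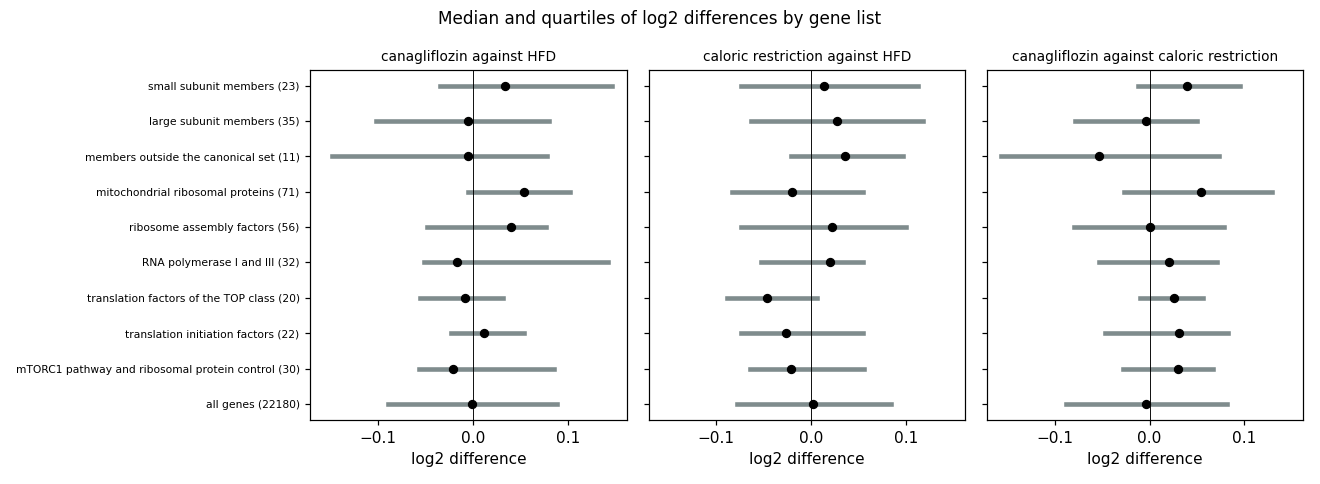
Median (point) and quartiles (bar) of log2 differences for the small and large subunit members, the name matches, related lists and all genes in the 3 comparisons, with the number of genes in brackets. The subunit medians lie between -0.0055 and 0.039, and the mitochondrial list sits at 0.054, -0.020 and 0.054.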

How the data were processed

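For 14 liver arrays the authors deposited probe set values on a log2 scale. The submitters' processing notes name RMA and Affymetrix Expression Console, and labelling started from 250 ng of total RNA per the labels' protocols. Version, library files and build were not stated there. RMA corrects background, equalises distributions between arrays and summarises probes. Of 41345 probe sets, 23521 had 1 symbol, 1814 several and 16010 none. The probe set with the highest mean represented each gene, and all 22180 genes entered limma 3.58.1 in R 4.3.3 with 3 group means. P values were adjusted per comparison by the Benjamini-Hochberg method, with a threshold of 0.05. The fit was run on simulated data with independent noise for each gene, without the shifts shared within an array that were seen here. Groups and replicate numbers came from the labels, which count mice per group but do not tie arrays to mice, so p-values measure the spread between these samples. Intervals are 95% intervals of that fit. All 69 members matched a RefSeq gene, and promoter sequences were those of RefSeq for GRCm38.p6.

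Members and lists were chosen with earlier results of these data known. Members named singly were the 6 furthest to each side per comparison, those of known role or paralogy and the 5 brightest and dimmest; each other list gave the 2 genes with the smallest p per comparison, of which some are printed, and genes outside the family were the 5 most and 5 least like the member median. Alternatives were a fit of 2 groups, filters at a mean of 5 or 6, cyclic loess, median centring, array weights, a robust variance trend, a replicate block, other uses of probe sets, an adjusted p threshold of 0.1, ribosome components alone, the deposited order and leaving out arrays.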

Additional observations from a re-analysis of the deposited data

Results flagged for a closer look

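Of 138 sets of replicates tested for an array standing far from the rest, covering 45 named members and the member median in each arm, 2 were singled out, where chance singles out about 1 set in 20. Rpl4 measured 10.84 in caloric restriction replicate 1, while the other restricted mice lay between 11.17 and 11.25. Rpl22 measured 5.25 in HFD control replicate 4, while the other controls lay between 5.35 and 5.36, a gap that is large only because those 3 were nearly equal.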

How the results depend on the processing

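In none of the 13 other settings and none of the fits without 1 array did a ribosomal protein gene pass. The median member difference ranged from -0.00017 to 0.034 (canagliflozin against HFD control), 0.0070 to 0.034 (caloric restriction against HFD control) and -0.011 to 0.037 (canagliflozin against caloric restriction) over those settings, and from -0.035 to 0.058, 0.0067 to 0.051 and -0.016 to 0.037 without 1 array. In the same order, 53.6%, 60.9% and 49.3% of members were higher as reported. These shares ran from 50 to 60.9%, 50.7 to 62.3% and 44.9 to 60.9% over 12 settings. Without 1 array they ran from 37.7 to 65.2%, 50.7 to 68.1% and 43.5 to 60.9%, so the majority could change sides. Members with an unadjusted p under 0.05 numbered 0 to 5 in each comparison over the settings, and 1 to 6, 0 to 5 and 1 to 5 without 1 array, against 1, 0 and 3 as reported. The settings with 5 include leaving out canagliflozin replicate 4 and HFD control replicate 3, chosen after seeing the data. Over all genes, calls between canagliflozin and HFD control numbered 0 as reported, 1 with a mean of at least 5, 1 with a mean of at least 6, 1 with the deposited order, 1 without those 2 arrays, and 0 to 12 without 1 array. Between caloric restriction and HFD control they numbered 0 as reported, 1 with the deposited order and 0 without any 1 array. Between canagliflozin and caloric restriction they numbered 1 as reported, 0 in a fit of only the 2 groups, 0 with a mean of at least 6, 0 without those 2 arrays, and 0 to 16 without 1 array. The highest counts, 12 and 16, came without canagliflozin replicate 3. The causes were not tested. With the replicate block this last comparison gave 2 calls. Of 13 pairs of arrays with the same number, 3 had deviations correlated above 0.1 (r -0.089 to 0.20). Of the 14 arrays, 5 correlated best with an array of their own number. The main fit did not take the numbers as pairing the mice, but these values cannot exclude a pairing. HFD control replicates 3 and 4 were deposited beside replicates 4 and 5 of the other arms, and pairing by deposited neighbours was not tested. Of 3252 values of named members over 25 settings, 5 moved beyond the spread, all when probe sets of a gene were averaged. These were Rpl3, Rplp0 and Rps20, and 0 were called. Signal near background limits the 18 members with a mean below 5.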
